A study of Mus musculus with 2 samples.

Results

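The 9 genes described here encode the MHC class II molecule, its chaperone, its peptide editors and the factor that switches these genes on. They were taken by name, *H2-Aa*, *H2-Ab1*, *H2-Eb1*, *Cd74*, *Ciita*, *H2-DMa*, *H2-DMb1*, *H2-Oa* and *H2-Ob*, from the 27998 genes counted, and all 9 were detected in both libraries. The data are droplet scRNA-seq of whole lungs of C57BL/6 mice (C57BL/6J in the study's methods) at 2 weeks of age. The room air group was kept at 21% O2 and the hyperoxia group at 80% O2, each from postnatal day 0 to day 14. The lungs of 8 mice were pooled into 1 library per group, so neither group had a replicate, single mice cannot be told apart and no test between the groups was made. The study set these libraries side by side to find which lung cells and genes differ after neonatal hyperoxia.

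MHC class II molecules present peptides from proteins that a cell has taken up to CD4 T cells. They are best known on dendritic cells, B cells and macrophages, and in the lung type 2 epithelium and capillary ECs are also known to carry them. *H2-Aa* and *H2-Ab1* encode the alpha and beta chains of I-A, and *H2-Eb1* encodes the beta chain of I-E, for which C57BL/6 mice make no functional alpha chain. *Cd74* encodes the invariant chain, which fills the groove until a peptide replaces it. *H2-DMa* and *H2-DMb1* encode the DM chains, which exchange peptides, and *H2-Oa* and *H2-Ob* encode the DO chains, which restrain DM. *Ciita* encodes the transactivator on which class II promoters depend, and in non-immune cells interferon gamma is known to induce it.

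Of the 9 genes, 7 lie together on chromosome 17 in the GENCODE annotation of GRCm38. In order along it they are *H2-Oa* (ENSMUSG00000024334, chr17:34092340-34095234), *H2-DMa* (ENSMUSG00000037649, chr17:34119541-34139101), *H2-DMb1* (ENSMUSG00000079547, chr17:34153072-34160230), *H2-Ob* (ENSMUSG00000041538, chr17:34238903-34254414), *H2-Ab1* (ENSMUSG00000073421, chr17:34257689-34269419), *H2-Aa* (ENSMUSG00000036594, chr17:34282744-34287823) and *H2-Eb1* (ENSMUSG00000060586, chr17:34305867-34316674). *H2-Aa* lies on the minus strand and the other 6 on the plus strand. *H2-Eb1*, *H2-DMa* and *H2-Oa* overlap genes on the opposite strand, and whether counting used strand is not given in the sources used here. *H2-DMb1* has the closely similar neighbour *H2-DMb2*, with which reads may be shared.

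Class II promoters are known for an X box and a Y box at a set distance, which bind the RFX and NF-Y factors that recruit CIITA. The RefSeq promoter table (GRCm38.p6) held 6 of the 8 genes looked for, with *H2-Ab1* and *Ciita* missing. In 5 of these, *H2-Aa*, *H2-Eb1*, *H2-Ob*, *H2-Oa* and *H2-DMb1*, the letters GNAAC were followed by ATTGG after 15 to 40 bases on the gene strand within 250 bases before the start. The distance from the start of the former to the start of the latter was 30 bases in *H2-Ob*, 32 in *H2-Eb1* and 33 in the other 3. The pair stood on the gene strand in 1.8% of 32851 promoters and on either strand in 3.6%. GNAAC alone stood in 79.6% of them and ATTGG alone in 33.8%, on either strand. These letters were chosen after the promoters had been read, and a match is not evidence of binding. The stretch that holds both, with the matched letters in capitals, is shown 5′ to 3′ where it overlaps no annotated exon. Those of *H2-Oa* and *H2-DMb1* overlap exons and are not shown. Of the genes shown, *H2-Aa* and *H2-Eb1* differed between the libraries in ECs and type 2 epithelium, and *H2-Ob* was counted mostly in B-like cells.
H2-Aa, minus strand, chr17:34287852-34287916: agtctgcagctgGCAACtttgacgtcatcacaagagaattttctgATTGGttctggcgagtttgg
H2-Eb1, plus strand, chr17:34305764-34305827: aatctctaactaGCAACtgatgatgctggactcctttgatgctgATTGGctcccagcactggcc
H2-Ob, plus strand, chr17:34238806-34238867: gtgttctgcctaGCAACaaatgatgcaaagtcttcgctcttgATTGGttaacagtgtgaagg

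Of 4234 barcodes with 39593888 UMIs from room air and 13223 barcodes with 111934936 UMIs from hyperoxia, 3680 and 10472 cells were kept after filtering and removal of likely doublets. The libraries shared 17 barcodes. Cells fell into 41 clusters, which were named where their markers allowed as, for example, gCap-like (general capillary ECs) or aCap-like (aerocytes, the other capillary ECs). The summed level of 8 endothelial markers in gCap-like cells was 12230.3 CPM for room air and 12016 CPM for hyperoxia. A level is the number of UMIs of a gene over all cells of a class, in CPM (counts per 1e+06 UMIs of that class). Pairs of values are given with room air before hyperoxia, and ratios are hyperoxia over room air. Ranges in parentheses are exact 95% intervals, which cover counting error only and not the spread between mice. A gene was tested for a 2-fold difference where its mean over both libraries was at least 10 CPM.

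The summed level of the 9 genes in room air ran from 47787 CPM in dendritic cDC2-like cells to 68.8 CPM in artery-like cells. Next to the cDC2-like cells came Ccr7-high dendritic-like cells at 28967 CPM, interstitial macrophage-like cells at 18565 CPM, B-like cells at 12616 CPM and type 2 epithelium-like cells at 5664 CPM. Under hyperoxia these 5 classes kept that order, at 43861, 22969.6, 17483, 13270.5 and 3153 CPM. Dendritic-like cells were 1.41% and 1.08% of the cells and gave 36.6% and 29.7% of all class II UMIs. B-like cells gave 29.0% and 31.4%, interstitial macrophage-like cells 13.7% and 15%, and type 2 epithelium-like cells 12.6% and 18.9%. ECs were 27.4% and 24.9% of the cells but gave 2.56% and 0.659% of these UMIs.

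**Figure D1:**
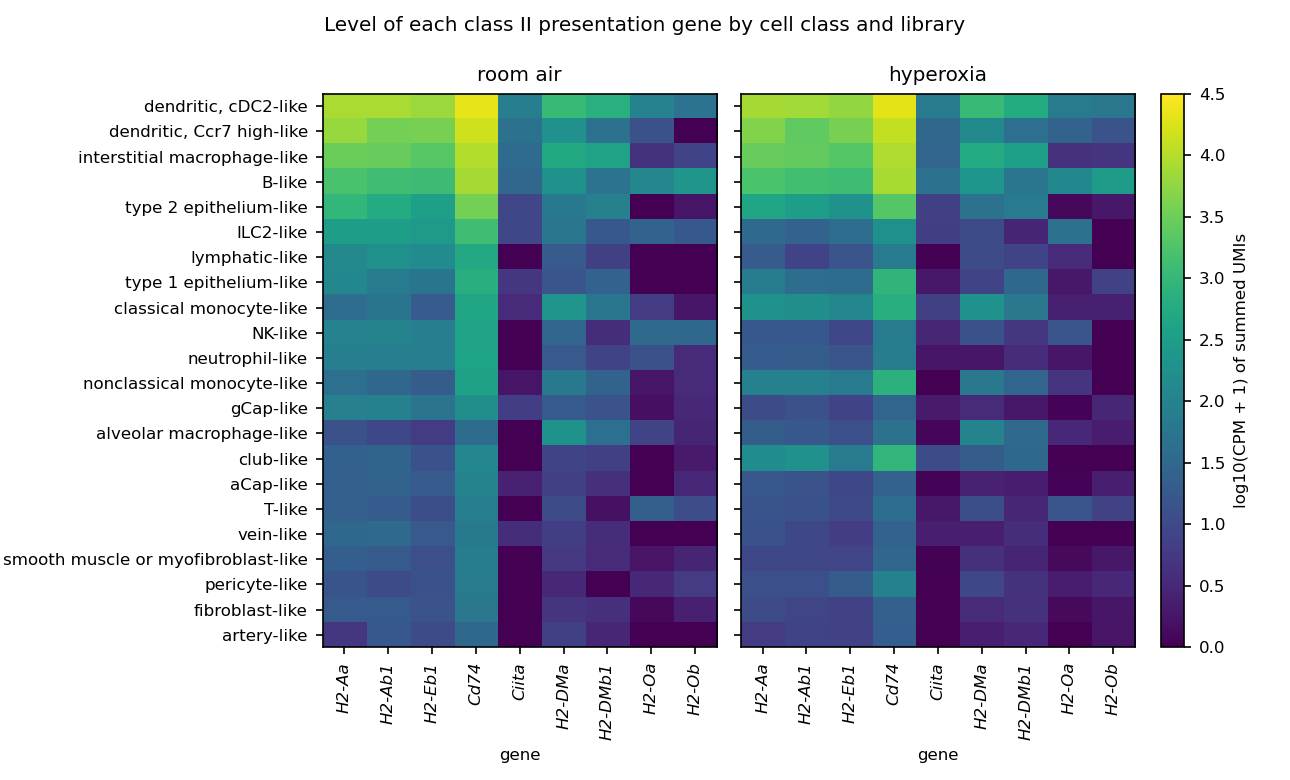
Heat map of log10(CPM + 1) of the 9 genes in the named cell classes of the room air and the hyperoxia library. Dendritic-like, interstitial macrophage-like, B-like and type 2 epithelium-like cells have high levels of the chains and Cd74 in both panels, and gCap-like cells have lower levels under hyperoxia.

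gCap-like cells (758 and 1133) differed most between the libraries, on the log2 scale, among the classes with at least 50 cells in each. *H2-Aa* had 89.4 CPM (81.6 to 97.6) and 10.2 CPM (8.21 to 12.6), a ratio of 0.114 (0.0903 to 0.144). *H2-Ab1* had 93.7 and 11.8 CPM, and its log2 ratio was -2.98 (-3.30 to -2.68). *H2-Eb1* had 52.5 and 7.13 CPM, and its log2 ratio was -2.88 (-3.30 to -2.48). The 3 chain genes were thus lower under hyperoxia with ratios whose intervals overlap. *Cd74* (ENSMUSG00000024610, on the plus strand of chromosome 18) had 167 and 27.8 CPM, with a log2 ratio of -2.58 (-2.79 to -2.38). The sum of the 9 genes was 442 and 63.7 CPM, and its log2 ratio was -2.79 (-2.93 to -2.66).

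*Ciita*, the transactivator (ENSMUSG00000022504, chr16:10480059-10528418, plus strand, overlapped by *Dexi* on the other strand), was counted 30 and 10 times in gCap-like cells. This was 5.45 CPM (3.68 to 7.78) and 1.15 CPM (0.551 to 2.11), and the log2 ratio was -2.25 (-3.44 to -1.17). It was counted 0 and 5 times in T-like cells and 0 times in fibroblast-like cells of either library. With a floor of 3 counts, a count of 0 allows up to 1.76 CPM in the T-like cells of room air. In the fibroblast-like cells it allows up to 0.765 CPM in room air and 0.190 CPM under hyperoxia. Per 100 UMIs of *Cd74* in room air, gCap-like cells had 3.27 (2.19 to 4.70) UMIs of *Ciita*, B-like cells 0.373 (0.294 to 0.466) and dendritic-like cells 0.380 (0.297 to 0.478). The value of gCap-like cells lay above those of both classes rich in class II RNA. In room air, the 28 gCap-like cells with a *Ciita* UMI had 1195 CPM of the 3 chain genes and *Cd74* together (1075 to 1326), and the 730 without had 356 CPM (340.2 to 373). Markers of other cells moved with this split: 6 B markers summed to 33.2 CPM in the former and 12.9 CPM in the latter, and macrophage and dendritic markers to 93.0 and 54.8 CPM. Their part in it was not tested. *Zbtb46* was left out of these dendritic markers because ECs express it too.

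The DM genes of gCap-like cells were also lower under hyperoxia. *H2-DMa* had 18.2 and 2.41 CPM (100 and 21 UMIs), with a log2 ratio of -2.91 (-3.67 to -2.22). *H2-DMb1* had 13.1 and 0.919 CPM (72 and 8 UMIs), with a log2 ratio of -3.83 (-5.10 to -2.77). The DO genes had few counts. *H2-Oa* had 3 UMIs and 1 UMI, and *H2-Ob* had 2.18 and 2.07 CPM. Of the 9 genes, 5 reached a mean of 10 CPM, the 3 chain genes, *Cd74* and *H2-DMa*, and all 5 were at least 2-fold lower, against 2.12% of all genes tested. *H2-DMa* and *H2-Eb1* had under 10 CPM under hyperoxia and reached that mean only through room air, so the count is a description and carries no weight of its own.

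**Figure D2:**
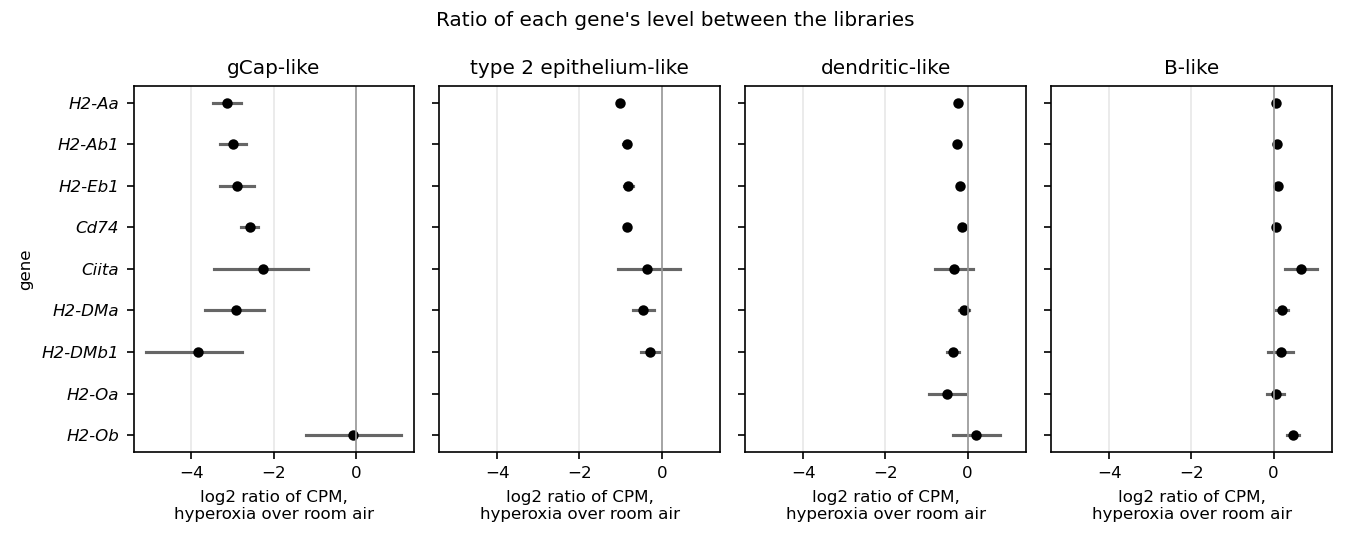
Log2 ratio of CPM, hyperoxia over room air, of each gene in gCap-like, type 2 epithelium-like, dendritic-like and B-like cells; points are ratios and lines exact 95% intervals for counting error, and genes with under 4 UMIs in a library are left out. In gCap-like cells 7 genes lie between -3.83 and -2.25 with H2-Ob at -0.08, and in B-like cells the 9 genes lie between 0.05 and 0.67.

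RNA from broken cells reaches every droplet, and cells that lack class II expression show how much. T-like cells served as this background, with a summed level of 180.4 and 112 CPM, and fibroblast-like cells had 118 and 54.2 CPM. The chain genes and *Cd74* gave 138 and 76.9 CPM of the T-like sum. *H2-Oa* gave 21.7 and 14.2 CPM of it, 18.2% and 11.6% of the B-like level, where the 6 B markers stood at 0.856% and 0.328%. The T-like sum may thus hold more than free RNA, which was not tested. In T-like cells with no marker UMI of another lineage (182 and 885) the sum was 96.7 and 95.8 CPM and *H2-Aa* 7.50 and 12.9 CPM, so the difference between the libraries in all T-like cells was not seen there. In room air 1 T-like cluster (75 cells) had 349.8 CPM, and those of 97 and 61 cells had 93.0 and 79.0 CPM. *Cd74* had 60.7 and 23.2 CPM in fibroblast-like cells and 79.7 and 30.2 CPM in smooth muscle or myofibroblast-like cells. *H2-Aa* of gCap-like cells lay above that of T-like cells in room air (89.4 against 23.4 CPM) and below it under hyperoxia (10.2 against 13.5 CPM). The summed level in gCap-like cells under hyperoxia, 63.7 CPM, was below the 112 CPM of T-like cells and above the 54.2 CPM (50.6 to 57.9) of fibroblast-like cells, and thus lay within the range of these 2 background classes. In room air, at 442 CPM, it lay above both. In both libraries it lay below neutrophil-like cells, also planned as a background, which had 702 and 139.6 CPM. In room air the 10% of neutrophil-like cells with most held 90.4% of their class II UMIs, and the 6 B markers summed to 244 CPM in them. As a percent of the level in B-like cells of the same library, the 6 B markers, *Cd79a*, *Cd79b* and *Ms4a1* among them, together stood at 0.249% and 0.190% in gCap-like cells. *H2-Aa* stood at 5.59% and 0.619%, *Ciita* at 18.5% and 2.46% and *H2-DMb1* at 25.6% and 1.59%. In room air these genes were thus above the share of the B markers. In fibroblast-like cells of room air the B markers stood at 0.436%, *H2-Aa* at 1.13%, *H2-DMb1* at 5.98% and *Ciita* at 0%. B markers do not follow RNA of dendritic-like or macrophage-like cells, so which cells this RNA came from was not tested.

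**Figure D3:**
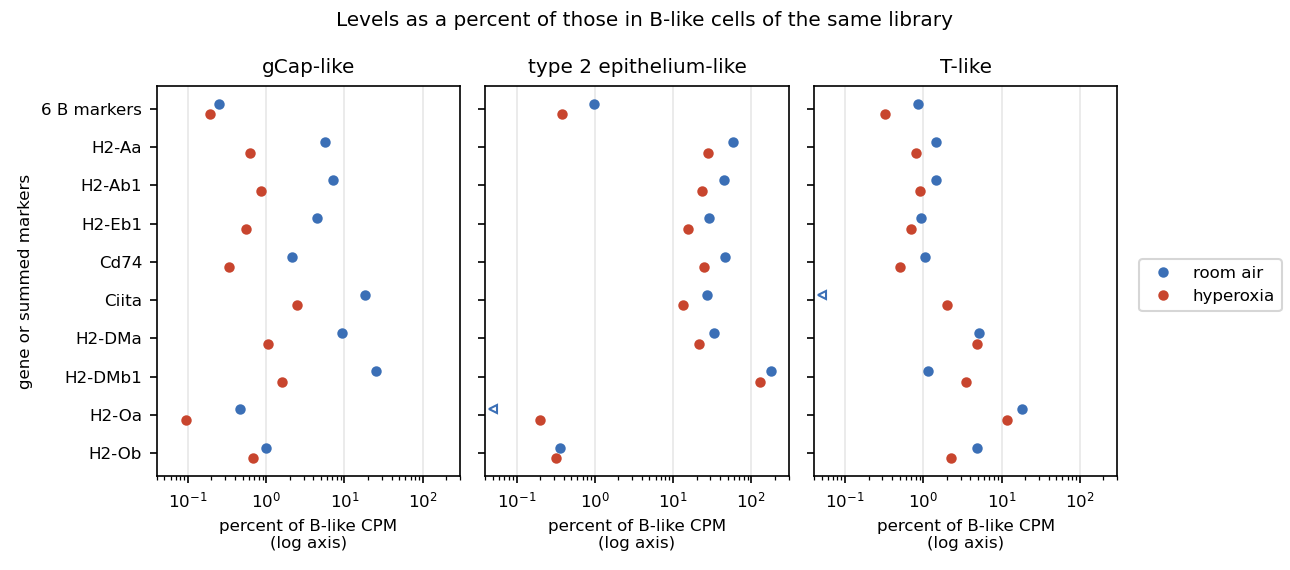
Level of the 6 summed B markers and of each of the 9 genes as a percent of the level in B-like cells of the same library (log axis), in gCap-like, type 2 epithelium-like and T-like cells; open triangles at the left edge mark a level of 0. In gCap-like cells H2-Aa stands at 5.59% in room air and 0.619% under hyperoxia, and H2-DMb1 of type 2 epithelium-like cells at 178% and 129%.

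A UMI of *H2-Aa*, *H2-Ab1* or *H2-Eb1* was present in 40.1% (36.6 to 43.7) and 17.7% (15.5 to 20) of gCap-like cells, and in 15% (10.8 to 20.1) and 13.2% (11.2 to 15.4) of T-like cells. The median depths were 6963.5 and 7940 UMIs in gCap-like cells and 6242.5 and 4782 in T-like cells. Each cell was then thinned to 2000 UMIs, and shallower cells were left out of all thinned shares. These shares were 22.3% (19.1 to 25.7) and 5.95% (4.54 to 7.64) in the 651 and 958 gCap-like cells left. They were 4.55% (2.20 to 8.20) and 5.73% (4.36 to 7.38) in the 220 and 977 T-like cells left. After thinning, the gCap-like share of room air lay above the interval of the T-like cells, and that of hyperoxia lay within it. In room air the class II UMIs were spread unevenly over gCap-like cells: the median cell had 101 CPM, the upper quartile was 416 CPM and the 10% of cells with most held 68.5% of the UMIs. Among cells with no UMI of a B, interstitial macrophage or dendritic cDC2 marker (509 and 790), the sum was 434 and 62.6 CPM and *H2-Aa* 88.2 and 10.2 CPM. The difference was as large without cells that held such markers.

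**Figure D4:**
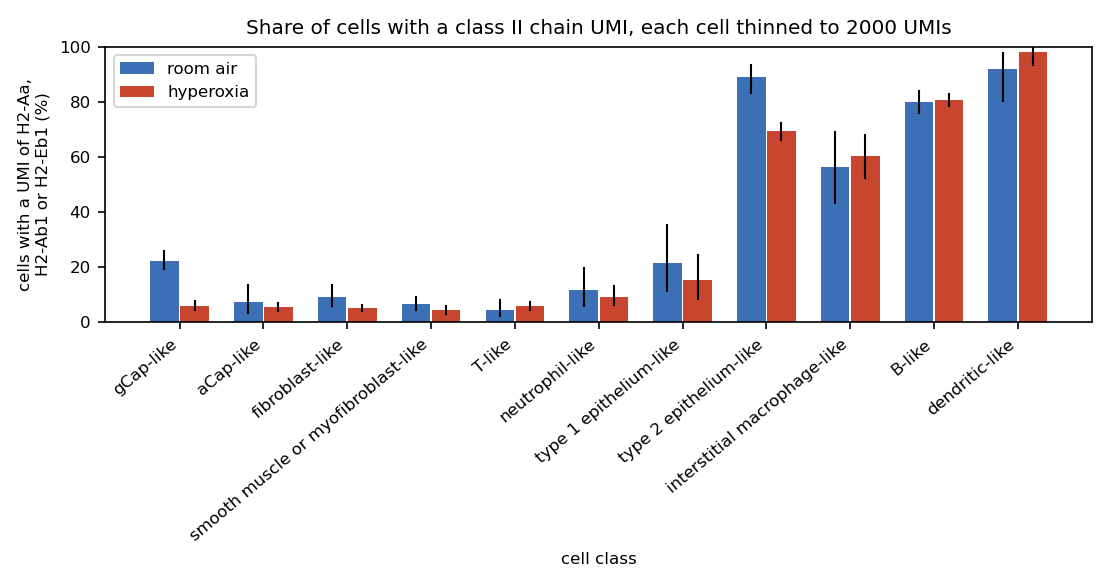
Percent of cells with at least 1 UMI of H2-Aa, H2-Ab1 or H2-Eb1 after thinning each cell to 2000 UMIs, with shallower cells left out. Bars are shares and lines exact 95% Clopper-Pearson intervals. gCap-like cells have 22.3% in room air and 5.95% under hyperoxia, T-like cells 4.55% and 5.73%, and type 2 epithelium-like cells 89.0% and 69.5%.

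aCap-like, vein-like and artery-like cells had less class II RNA than gCap-like cells in room air. Lymphatic-like cells, ECs of which only 12 and 46 were found, had 996 and 130 CPM, more than gCap-like cells in both libraries. In aCap-like cells (156 and 1178) the sum was 183 and 66.8 CPM, with a log2 ratio of -1.45 (-1.67 to -1.23). *Cd74* had 103 and 25.5 CPM there and *H2-Aa* 22.5 and 15.5 CPM. Of 4 genes tested, *H2-Eb1* and *Cd74* were at least 2-fold lower, against 2.86% of all genes. *H2-Eb1* reached the mean of 10 CPM only through room air. The 6 B markers summed to 38.8 and 15.1 CPM in aCap-like cells. Among those with no UMI of a B, interstitial macrophage or dendritic cDC2 marker (126 and 984), the sum was 108 and 44.2 CPM. T-like cells chosen the same way had 96.7 and 95.8 CPM. The part of RNA from other cells in the difference was not tested. The thinned share of aCap-like cells with a chain UMI was 7.32% (3.40 to 13.4) and 5.45% (4.09 to 7.08), which overlapped that of T-like cells. Vein-like cells (31 and 110) had 161 and 58.0 CPM, with 4 of 4 genes at least 2-fold lower against 7.42% of all genes, *H2-Ab1* and *H2-Eb1* having reached the mean only through room air, and artery-like cells (52 and 137) had 68.8 and 44.2 CPM. Over all ECs (1009 and 2604) the sum was 374 and 64.7 CPM, with a log2 ratio of -2.53 (-2.63 to -2.44), and 4 of 4 genes were at least 2-fold lower and none was higher, against 2.15% and 1.81% of all genes, with *H2-Eb1* tested only through its level in room air. gCap-like cells made up 758 of the 1009 ECs of room air and 1133 of the 2604 of hyperoxia, so this pooled value also carries the makeup of the ECs. The chain genes and *Cd74* together had 170 and 62.4 CPM in aCap-like cells and 149 and 52.3 CPM in vein-like cells. They were also lower under hyperoxia in fibroblast-like cells (110 and 47.2 CPM) and smooth muscle or myofibroblast-like cells (130 and 54.8 CPM). Pericyte-like cells went the other way (111 and 135 CPM). Clusters of low depth differed less between the libraries. The aCap-like cluster with median depths of 1135 and 1110 UMIs per cell had 416 and 429 CPM, and that with 8978 and 9022 UMIs had 176 and 50.8 CPM. The gCap-like cluster of low depth (125 and 219 cells, median depths of 1288 and 1231 UMIs) had 311 and 231 CPM, and the largest gCap-like cluster (623 and 896 cells) had 455 and 53.2 CPM. The former also differed in more than depth. Its leading genes held *Glycam1*, *Ubd* and *Ackr1* beside *Gpihbp1* and *Aplnr*, and *Ubd* had 0 and 298 CPM in it. The mean over single ECs, which weights shallow cells more, had a log2 ratio of -1.83.

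Type 2 epithelium-like cells (167 and 908), which make the surfactant of the alveoli, carried class II RNA in nearly every cell of room air. *H2-Aa* had 939.7 CPM (902 to 978) and 462 CPM (450.2 to 474), and the log2 ratio was -1.02 (-1.09 to -0.95). *H2-Ab1* had 593 and 329 CPM and *H2-Eb1* 346 and 197 CPM. *Cd74* had 3620.4 and 2034 CPM, with a log2 ratio of -0.83 (-0.87 to -0.80). The sum was 5664 and 3153 CPM, and its log2 ratio was -0.85 (-0.87 to -0.82). The chains and *Cd74* had log2 ratios between -1.02 and -0.81. Of 6 genes tested, *H2-Aa* alone was at least 2-fold lower and none was 2-fold higher, against 1.99% and 1.33% of all genes.

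The DM genes of type 2 epithelium-like cells differed by smaller ratios. *H2-DMa* had 66.0 and 48.1 CPM, with a log2 ratio of -0.46 (-0.71 to -0.20), and *H2-DMb1* 91.2 and 74.8 CPM, with -0.29 (-0.50 to -0.07). The interval of *H2-DMb1* did not overlap that of any chain gene. *Ciita* had 20 and 77 UMIs, which was 7.90 CPM (4.83 to 12.2) and 6.21 CPM (4.90 to 7.77). Its log2 ratio, -0.35 (-1.07 to 0.44), has an interval that holds 0 as well as the ratio of each chain gene. The DO genes were almost absent from the counts, with 0 and 3 UMIs of *H2-Oa* and 2 and 12 UMIs of *H2-Ob*. With a floor of 3 counts, a count of 0 allows up to 1.18 CPM of *H2-Oa* in room air.

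A chain UMI was present in 97.0% (93.2 to 99.0) and 90.2% (88.1 to 92.1) of type 2 epithelium-like cells at median depths of 15888 and 14056.5 UMIs, and in 89.0% (83.1 to 93.3) and 69.5% (66.2 to 72.5) after thinning to 2000 UMIs. Over single cells the summed level had a median of 5084 and 2808 CPM. Its lower quartile was 3793 and 1265 CPM and its upper quartile 6889 and 4492 CPM. The lower quartiles were thus further apart than the upper ones, as ratios. Among cells with no UMI of a B, interstitial macrophage or cDC2 marker (95 and 604) the sum was 5392 and 2936 CPM. The B markers stood at 0.965% and 0.381% of the B-like level, where *H2-Aa* stood at 58.8% and 27.9%.

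Type 1 epithelium-like cells (67 and 130), the flat cells of gas exchange, had a sum of 944 and 1089 CPM. Here *Cd74* and the I-A chains went opposite ways. *Cd74* had 649.6 and 884 CPM, with a log2 ratio of 0.44 (0.28 to 0.61), and *H2-Aa* 124 and 75.6 CPM, with -0.71 (-1.16 to -0.26). *H2-Ab1* had 70.3 and 42.0 CPM, with -0.74 (-1.36 to -0.13). Per 100 UMIs of *Cd74* there were 19.0 (15 to 24.0) and 8.55 (6.73 to 10.7) UMIs of *H2-Aa*. Markers of other cells moved with these levels: 6 type 2 epithelium markers summed to 39589 and 13726 CPM in type 1 epithelium-like cells, the B markers to 12.7 and 89.6 CPM and 6 neutrophil markers to 23.9 and 409.8 CPM. Their part in the result was not tested. None of 6 genes tested was 2-fold higher or lower, against 3.41% and 5.17% of all genes.

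**Figure D5:**
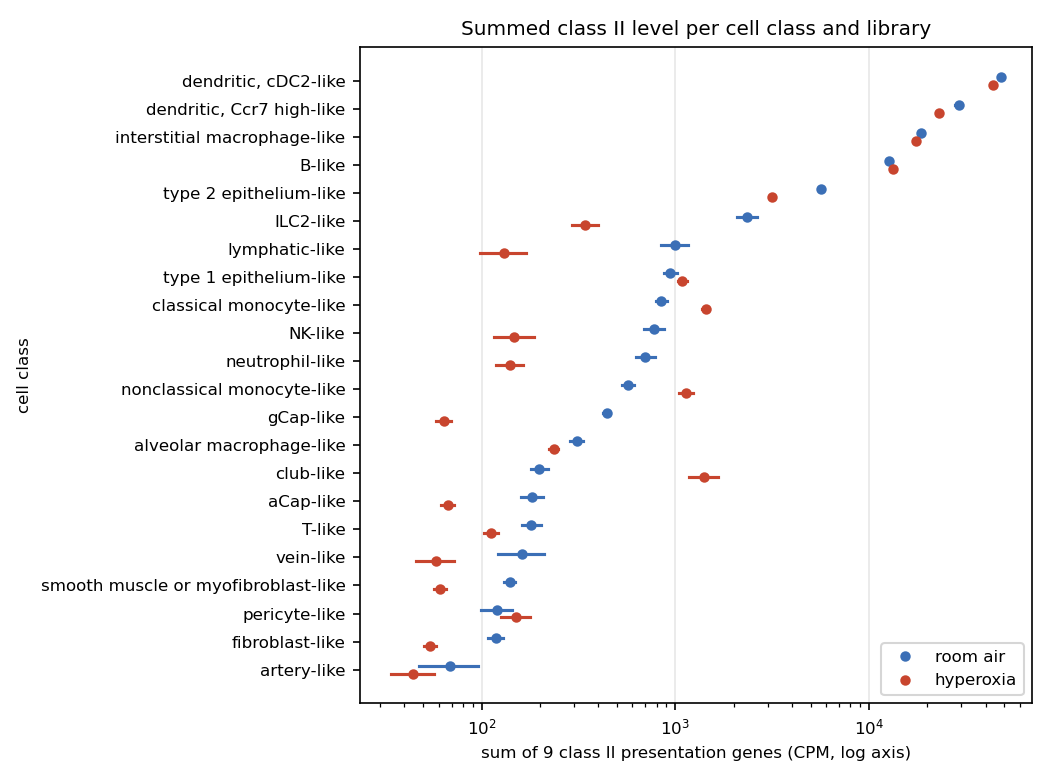
Sum of the 9 genes in CPM (log axis) per cell class in the room air and the hyperoxia library; points are levels and lines exact 95% Poisson intervals. gCap-like cells stand at 442 and 63.7 CPM and type 2 epithelium-like cells at 5664 and 3153 CPM, while the points of B-like cells, 12616 and 13270.5 CPM, nearly coincide.

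In the immune cells best known for class II presentation the libraries differed less. Dendritic-like cells (52 and 113) had a sum of 46096 and 40661 CPM, with a log2 ratio of -0.18 (-0.20 to -0.16). *H2-Aa* had 8451 and 7209 CPM, *Cd74* 21234 and 19315 CPM and *Ciita* 80.6 and 63.8 CPM. None of the 9 genes was 2-fold higher or lower there, against 3.12% and 4.14% of all genes. Most of these cells (44 and 85) formed a cDC2-like cluster, whose leading genes also held the cDC1 gene *Xcr1*. The Ccr7-high dendritic-like cells (8 and 28), a migratory state, had 184 and 135 CPM of *H2-DMa* where cDC2-like cells had 1070.2 and 1079.6 CPM.

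Interstitial macrophage-like cells (67 and 163) had a sum of 18565 and 17483 CPM, and 0 of 7 genes tested were 2-fold higher or lower, against 2.53% and 5.38% of all genes. The log2 ratio of the sum was -0.09 (-0.11 to -0.06), and that of the mean over single cells was 0.06, so its direction depended on how cells were weighted. The cells were uneven, and 5 cDC2 markers summed to 447 and 223 CPM in them, against 1235 and 1087 CPM in cDC2-like cells, whose part in these levels was not tested. The summed level had a lower quartile of 734 and 389.5 CPM and an upper quartile of 25188 and 30005 CPM. In room air the 15 cells with a *Ciita* UMI had 39530.0 CPM of the chains and *Cd74*, and the 52 without had 6766 CPM. Under hyperoxia the 35 cells with a *Ciita* UMI had 34697 CPM and the 128 without 9742 CPM.

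B-like cells (436 and 1383) had a sum of 12616 and 13270.5 CPM, and 0 of 9 genes were 2-fold higher or lower, against 1.52% and 2.10% of all genes. The log2 ratio of 0.07 (0.05 to 0.09) turned negative under 5 of the alternative settings. These cells held a cluster led by *Vpreb3*, *Rag1*, *Igll1* and *Vpreb1*, genes of B cell precursors (50 and 190 cells), which had 458 and 1443 CPM, and the cluster of the other B-like cells (386 and 1193) had 15884 and 15682 CPM. *Ciita* had 29.4 and 46.7 CPM in all B-like cells, with a log2 ratio of 0.67 (0.29 to 1.06), and 37.3 and 55.5 CPM in the latter cluster. *H2-Ob* had 218 and 304 CPM, with a log2 ratio of 0.47 (0.33 to 0.62), and 269 and 346 CPM in that cluster. The chain genes and *Cd74* of B-like cells had log2 ratios between 0.05 and 0.10.

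Monocyte-like cells had higher summed levels under hyperoxia. In classical monocyte-like cells (113 and 164) *H2-Aa* had 40.3 CPM (29.5 to 53.7) and 206 CPM (182 to 232), *H2-Ab1* 56.0 and 169 CPM and *H2-Eb1* 18.4 and 114 CPM. Of 6 genes tested these 3 were at least 2-fold higher, against 3.18% of all genes, and none was lower, against 2.06%. The counts sat in few cells: the median cell had 433 and 296 CPM of the 9 genes, and the 10% of cells with most held 59.8% and 80.2% of the UMIs. A chain UMI was present in 28.3% (20.2 to 37.6) and 18.3% (12.7 to 25.1) of the cells, and in 8.11% (3.77 to 14.8) and 9.26% (5.28 to 14.8) after thinning. The 6 interstitial macrophage markers summed to 304 and 474 CPM, the B markers to 31.5 and 58.7 CPM and the cDC2 markers to 27.1 and 32.0 CPM, and their part in the result was not tested. In nonclassical monocyte-like cells (248 and 143) the sum was 569.9 and 1134 CPM, and 4 of 6 genes were at least 2-fold higher, against 5.35% of all genes. The interstitial macrophage markers summed to 336 and 526 CPM and the B markers to 48.4 and 33.5 CPM, and their part in this was not tested either. There too the median cell was lower under hyperoxia, with 299.9 and 238 CPM, and the 10% of cells with most held 56.9% and 78.5% of the UMIs.

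The DM genes did not follow the chains in every class. Alveolar macrophage-like cells (146 and 318) had 11.9 and 20.1 CPM of *H2-Aa* and 38.2 and 48.7 CPM of *Cd74*, where T-like cells had 23.4 and 13.5 CPM and 83.7 and 41.8 CPM. Their *H2-DMa* had 194 CPM (175 to 214) and 101 CPM (93.2 to 109.9), and the log2 ratio was -0.94 (-1.12 to -0.75). The median log2 ratio over all genes tested in this class was -0.24. Their *H2-DMb1* had 43.1 CPM (34.5 to 53.2) and 34.6 CPM (29.9 to 39.7), with intervals that overlap. Per 100 UMIs of *Cd74*, alveolar macrophage-like cells had 508 and 208 UMIs of *H2-DMa*, and interstitial macrophage-like cells 5.63 and 6.27. The balance of the DM chains also differed between classes. Per 100 UMIs of *H2-DMb1* there were 384 (317 to 467) and 391 (343 to 447) UMIs of *H2-DMa* in B-like cells and 72.3 (58.9 to 88.6) and 64.3 (57.9 to 71.3) in type 2 epithelium-like cells. *H2-DMb1* was higher in type 2 epithelium-like cells than in B-like cells, where it had 51.2 and 57.8 CPM, although each chain gene was lower. *H2-DMb2* had 185 and 176 CPM in B-like cells and 2.37 and 1.21 CPM in type 2 epithelium-like cells, and how the authors' counting divided reads between these neighbours is not known.

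The DO genes were counted mostly in B-like cells, which gave 80.8% and 87.3% of all *H2-Ob* UMIs and 63.3% and 70.6% of all *H2-Oa* UMIs. *H2-Oa* had 119 and 123 CPM in B-like cells and 97.1 and 69.9 CPM in cDC2-like cells. Interstitial macrophage-like cells, with 533 and 567 CPM of *H2-DMa*, had 3.58 and 3.40 CPM of it. T-like cells had 21.7 CPM (15.3 to 29.9) and 14.2 CPM (11.2 to 17.8) of *H2-Oa*, which was 18.2% and 11.6% of the B-like level where *H2-Aa* stood at 1.46% and 0.816%.

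A list of 25 further genes of the pathway, of which 24 were in the files, held lysosomal proteases, costimulatory molecules, the RFX and NF-Y factors and the interferon gamma pathway. In gCap-like cells 0 of 16 tested were 2-fold higher or lower, against 1.85% and 2.12% of all genes, and their median log2 ratio was -0.29 against -0.01 over all genes. *Irf1*, a transcription factor of the interferon response, had 242 and 163 CPM there and *Ifngr1*, a chain of the interferon gamma receptor, 188 and 222 CPM. In type 2 epithelium-like cells 0 of 14 were 2-fold higher or lower. *Ifng* had 288 and 224 CPM in NK-like cells (45 and 111) and 64.4 and 49.5 CPM in T-like cells.

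Outside these lists, 8 genes were named for the pattern most like the mean log2(CPM + 1) of *H2-Aa*, *H2-Ab1*, *H2-Eb1* and *Cd74* over 22 classes in each library, among 7436 genes with at least 50 CPM in a class of each library. They were *Dnase1l3* (Pearson r of 0.815), *Fgd2* (0.793), *Blnk* (0.764), *Etv3* (0.743), *Kmo* (0.726), *Cd83* (0.724), *Slamf7* (0.722) and *Tnip3* (0.720). The 44 points share libraries and free RNA, so r is a description. *Ciita* had an r of 0.896. *Cd83*, a marker of activated dendritic cells, had 585 and 623 CPM in cDC2-like cells and 150.5 and 229 CPM in B-like cells. It had 13.8 and 12.2 CPM in type 2 epithelium-like cells and 5.09 and 2.30 CPM in gCap-like cells. *Blnk*, an adaptor of the B cell receptor, had 181 and 194 CPM in B-like cells and 2.37 and 1.13 CPM in type 2 epithelium-like cells.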

How the data were processed

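Lung cells of 2 libraries, 1 per group, were sequenced with 10x Genomics chemistry, for which the labels and the study's methods name different kit versions. The authors deposited raw UMI counts per gene and barcode, aligned to mm10 (GRCm38) with Cell Ranger, for which the sources also give different versions, among them 2.1.1 in the submitters' processing notes. Whether counting used strand is not given in the sources used here.

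Barcodes with under 500 genes or over 20% mitochondrial UMIs were left out. Likely doublets were removed by similarity to simulated ones (2 per cell, 0.8% per 1000 barcodes), 129 in room air and 1239 in hyperoxia. Cells of both libraries were clustered jointly (2000 variable genes without the class II and pathway lists, 30 principal components, 20 neighbours, Leiden resolution 1) and named from at least 3 raised markers. The cell classes are rebuilt and may differ from those of the study. Counts were summed per class and library. Poisson intervals were used for levels, Clopper-Pearson intervals for shares and conditional binomial intervals for ratios. The floor for a count of 0 was 3 counts. With 1 library per group, no p-value was computed. The scripts, in Python 3.11.15 with numpy 2.4.6, scipy 1.17.1 and leidenalg 0.10.2, were tested on simulated data.

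The 9 genes and the pathway list were chosen by name, and the members and lists were chosen with earlier results of these data known. Genes of likest pattern were the 8 highest by Pearson r. *H2-Ea-ps* was not matched. Some results are not reported here. Alternatives covered doublet removal, cell filters, the CPM denominator, weighting, resolution, free RNA, cells with other markers and *Cd74*.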

Additional observations from a re-analysis of the deposited data

Results flagged for a closer look

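The summed level of the 9 genes went in opposite directions between the libraries in different cell classes. It was higher under hyperoxia in classical monocyte-like cells (log2 ratio 0.76), nonclassical monocyte-like cells (0.99) and B-like cells (0.0730), and lower in gCap-like cells (-2.79), aCap-like cells (-1.45), type 2 epithelium-like cells (-0.85), interstitial macrophage-like cells (-0.0866) and dendritic-like cells (-0.18). With 1 library per group, the difference between these classes was not tested. The directions in B-like and interstitial macrophage-like cells changed with the processing.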

How the results depend on the processing

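All values here are log2 ratios of the summed level. In type 2 epithelium-like cells (-0.85 as reported) the ratio was -0.76 with no doublet removal, -0.77 with CPM computed without mitochondrial, ribosomal protein and haemoglobin genes, -0.79 for the mean of single cells and -0.88 in cells with no marker UMI of another lineage. In ECs (-2.53) it was -2.40 with no doublet removal, -2.79 with double the expected doublets removed, -2.78 under a stricter cell filter (1000 genes, 10% mitochondrial UMIs), -1.83 for the mean of single cells, -2.63 at resolution 2 and -2.80 without other markers. Settings chosen after seeing the data gave -2.82 without the clusters of low depth and -2.79 for gCap-like cells alone. In B-like cells (0.07) the sign turned with no doublet removal (-0.13), double removal (-0.0933), the mean of single cells (-0.0042), resolution 2 (-0.11) and, chosen after seeing the data, without the *Vpreb1* cluster (-0.0185). It was 0.0272 without mitochondrial, ribosomal protein and haemoglobin genes and 0.10 without *Cd74*. In dendritic-like cells (-0.18) it was -0.31 with no doublet removal and -0.22 without *Cd74*. In interstitial macrophage-like cells (-0.09) the mean of single cells gave 0.0621. The causes were not tested. Subtracting the level of T-like cells gave no ratio for ECs, since under hyperoxia their level lay below it, and settings that left under 50 cells in a library gave no value: the filter on other markers in B-like and dendritic-like cells, and double doublet removal and the stricter cell filter in dendritic-like cells. No paired analysis was possible because each group has 1 library. With no replicates, differences between mice cannot be separated from those between the groups, and *Ciita* and the DO genes in non-immune cells rest on few UMIs.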

Other observations

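In 3 further classes few cells held most class II UMIs in room air. In neutrophil-like cells (108 and 461) the sum was 702 and 139.6 CPM, and the 10% of cells with most held 90.4% of the UMIs in room air, with the 6 B markers at 244 and 42.6 CPM. In NK-like cells (45 and 111) the sum was 776 and 148 CPM and that share 93.3%, with the 6 B markers at 196 and 20.5 CPM. In ILC2-like cells (14 and 75) the sum was 2346 and 343 CPM and that share 94%, with the 6 B markers at 642 and 27.4 CPM. This class joined 2 unlike clusters. The larger (13 and 64 cells) had 2531 and 212 CPM. The smaller (1 and 11 cells), whose leading genes held *Il22*, *Ccr6* and *Tnfsf11*, had 108 and 1140 CPM. Club-like cells (29 and 19) had 199 and 1402 CPM at median depths of 47446 and 1925 UMIs, with 6 type 2 epithelium markers at 4005 and 92681 CPM. The part of these markers in the levels was not tested. Lymphatic-like cells (12 and 46) had 996 and 130.3 CPM.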
